A study of Mus musculus with 8 samples.

Results

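Livers of mice given T0901317, a synthetic agonist of the liver X receptors (LXRs), were compared with livers of mice given vehicle, across both transgenes of the study. All 8 arrays of the study entered, chosen by their labels: 4 from livers given T0901317 and 4 from livers given vehicle. T0901317 was given at 5 mg/kg, and both T0901317 and vehicle were injected intraperitoneally for 3 days. Within each treatment, 2 mice carried a GFP transgene as the control and 2 carried a human LXRα transgene, so each of the 4 groups (GFP T0901317, LXRα T0901317, GFP vehicle and LXRα vehicle) held 2 arrays, with 1 mouse per array.

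All the mice, vehicle controls included, shared the following. They were Low Density Lipoprotein Receptor null on a C57B6 background, were 8 months old, and had been kept on a Western diet for 12 weeks. Each had received an adeno-associated virus (AAV2.8) at 10 weeks of age, in which the human thyroxine binding globulin promoter, specific to the liver, drove GFP or LXRα. The vehicle mice therefore also lacked the LDL receptor, ate the same diet and expressed a viral transgene. Every effect of T0901317 below was measured in that setting. The 11 tested hepatocyte markers, among them albumin, transthyretin and Apoa1, summed to 128746 to 144820 intensity units in T0901317 livers. In vehicle livers they summed to 130339 to 164691. Sums of the marker lists of other cell types, given below, were all lower, though probe sets differ in brightness. No tested hepatocyte marker was at the floor on any array. That does not set hepatocytes apart, as dim probe sets had been filtered out and most other marker lists gave the same.

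LXRα and LXRβ are nuclear receptors that bind oxysterols, pair with the retinoid X receptor and sit on DNA elements made of a direct repeat spaced by 4 bases, called DR4. In liver they control genes of cholesterol export to plasma and bile (Abca1, Abcg5, Abcg8), of fatty acid synthesis (Srebf1, Fasn, Scd1), of lipoprotein remodelling (Pltp, Lpl) and, in the mouse, of bile acid synthesis (Cyp7a1). T0901317 activates both receptors and is known to bind the pregnane X receptor as well.

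The promoters of 4 genes described below are shown because each holds a sequence near the DR4 consensus. They are the 250 bases before the transcription start in RefSeq, build GRCm38.p6, printed 5′ to 3′ on the gene's strand, with the element in capitals. Abca1 lies on the minus strand, at chr4:53159896-53160145, and its element spans bases -67 to -52 from the start. For Srebf1 (minus strand, chr11:60210472-60210721, one of 3 starts in the table) the element spans -182 to -167. For Fasn (minus strand, chr11:120824548-120824797) it spans -225 to -210, and for Rnf145 (plus strand, chr11:44520039-44520288, one of 3 starts) -92 to -77.
Abca1: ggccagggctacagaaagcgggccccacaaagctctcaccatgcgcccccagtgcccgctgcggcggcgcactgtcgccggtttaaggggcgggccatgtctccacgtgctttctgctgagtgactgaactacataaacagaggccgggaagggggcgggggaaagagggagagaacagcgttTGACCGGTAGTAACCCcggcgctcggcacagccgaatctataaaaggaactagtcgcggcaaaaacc
Srebf1: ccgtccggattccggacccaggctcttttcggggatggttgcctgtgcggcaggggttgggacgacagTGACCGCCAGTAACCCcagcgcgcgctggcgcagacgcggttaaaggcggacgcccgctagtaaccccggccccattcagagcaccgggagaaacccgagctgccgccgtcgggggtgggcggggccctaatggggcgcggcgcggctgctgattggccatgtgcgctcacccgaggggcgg
Fasn: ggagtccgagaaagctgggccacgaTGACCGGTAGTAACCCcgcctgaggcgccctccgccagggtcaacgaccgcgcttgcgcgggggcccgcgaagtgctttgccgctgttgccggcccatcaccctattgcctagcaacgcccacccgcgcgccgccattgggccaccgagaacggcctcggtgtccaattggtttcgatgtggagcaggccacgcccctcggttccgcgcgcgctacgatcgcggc
Rnf145: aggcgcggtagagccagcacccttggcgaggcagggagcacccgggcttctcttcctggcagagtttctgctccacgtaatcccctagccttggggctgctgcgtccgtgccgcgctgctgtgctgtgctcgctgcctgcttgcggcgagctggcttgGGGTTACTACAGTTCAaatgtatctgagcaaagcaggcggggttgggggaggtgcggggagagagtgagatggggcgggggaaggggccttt
The elements of Abca1 and Fasn are the same 16 letters, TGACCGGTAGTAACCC, which read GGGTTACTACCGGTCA on the other strand. That of Srebf1 reads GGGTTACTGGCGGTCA on the other strand, and Rnf145 holds GGGTTACTACAGTTCA on its own strand. Each was found by a search on both strands for AGGTCA repeated after any 4 letters, with up to 3 mismatches. Such a match is common: 5641 of 27025 genes with a promoter in the table had one in their 250 bases, 20.9%. Among genes of this report with a promoter in the table, it was present in 3 of 11 tested LXR targets in 10 of 19 tested genes of fatty acid and triglyceride synthesis, in 3 of 9 of the largest called rises and in 3 of 6 named called falls. The letters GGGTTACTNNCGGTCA on either strand, a pattern chosen after the Abca1 and Srebf1 promoters had been read, occurred in 3 of the 27025 genes, namely Abca1, Fasn and Srebf1. A match is a description of the letters and does not show a binding site.

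Control signals that bear on RNA quality or on sample processing moved with the treatment. The ratio of 3′ to 5′ signal of β-actin was 7.56 and 11.0 on the GFP T0901317 arrays and 2.75 and 36.3 on the LXRα T0901317 arrays, against 2.08 to 3.08 on the 4 vehicle arrays. The bacterial control dap gave 2.86 to 21.8 on T0901317 arrays, against 1.67 to 2.20 on vehicle arrays. Ratios of Gapdh, pyruvate carboxylase and thr, another bacterial control, were also higher on all 4 T0901317 arrays than on any vehicle array, while those of phe, lys and the transferrin receptor overlapped. The probe sets of 18S ribosomal RNA separated the treatments too, with 11.8 to 45.3 intensity units for its middle part on T0901317 arrays and 245 to 638 on vehicle arrays, and 8.37 to 31.4 against 434 to 4052 on vehicle arrays for its 5′ part. LXRα T0901317 replicate 1 had the lowest β-actin, Gapdh, dap and thr ratios of the T0901317 arrays. Its β-actin ratio lay within the vehicle range, but Gapdh (1.27), dap (2.86), thr (1.28) and pyruvate carboxylase (26.4) were above every vehicle array, and its 18S intensities were on the T0901317 side. The difference of this array from the LXRα vehicle arrays is given beside many results below, as the value that rests on none of the 3 T0901317 arrays with high β-actin ratios. Because dap and thr are bacterial, their ratios are not measures of liver RNA. The part of RNA quality or of sample processing in the differences was not tested further than by these values. Log2 intensities of the 2 arrays of a group correlated across probe sets at 0.949 to 0.978, with the lowest value in the LXRα T0901317 group.

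**Figure D1:**
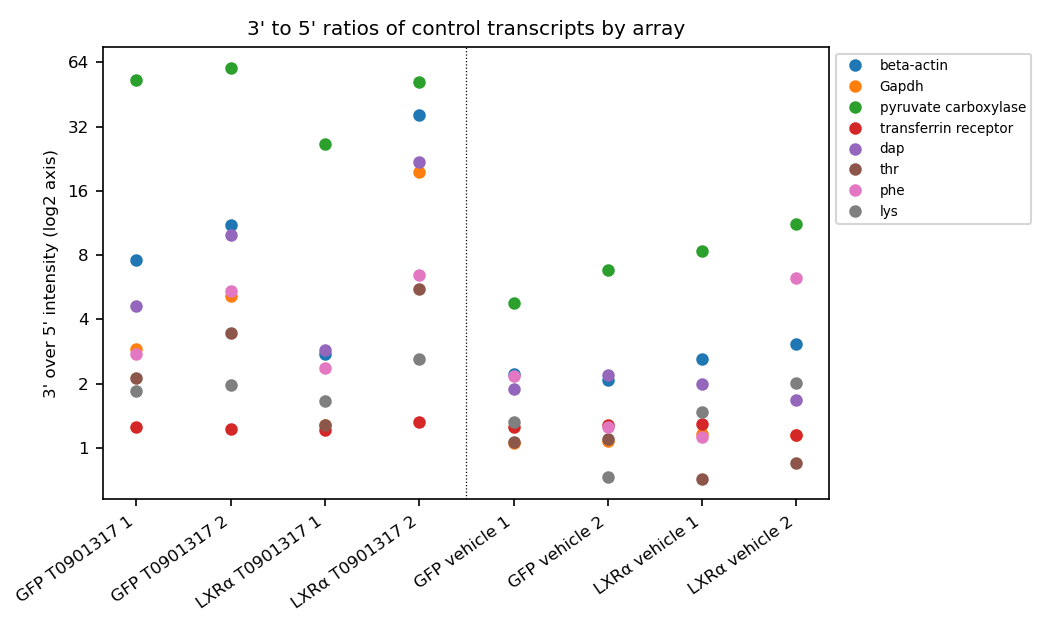
Ratio of 3′ to 5′ intensity (log2 axis) of 8 control transcripts on each of the 8 arrays, T0901317 arrays to the left of the dotted line and vehicle arrays to its right; each point is 1 array. The β-actin ratio is 2.75 to 36.3 on T0901317 arrays and 2.08 to 3.08 on vehicle arrays, with LXRα T0901317 replicate 1 inside the vehicle range.

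Averaged over both transgenes, 90 of 15838 tested probe sets passed limma's test at a Benjamini-Hochberg adjusted p under 0.05 (0.568%). Of these, 68 rose after T0901317 (0.429%) and 22 fell (0.139%). The 90 stood for 81 named genes. In 88 of the 90 the difference had the same sign in GFP and in LXRα livers. Over all tested probe sets 72.7% had the same sign, and the differences in the 2 backgrounds, which share no array, correlated at 0.509 across probe sets, which are not independent replicates. Differences of the called probe sets ran from 0.65 to 3.27 log2 units in size, and 71 exceeded 1. In 62 of the 68 that rose, all 4 T0901317 arrays lay above all 4 vehicle arrays, and in 21 of the 22 that fell, all lay below. Over all tested probe sets, 8.2% lay wholly above and 8.44% wholly below.

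Most calls lay close to the threshold. At an adjusted p under 0.10 the count was 738 (551 higher, 187 lower), and at an unadjusted p under 0.05 it was 3679. Leaving out LXRα T0901317 replicate 1, the T0901317 array of lowest β-actin ratio, gave 1506 calls (757 higher, 749 lower), which included all 90. Leaving out LXRα vehicle replicate 2 gave 0, with 2547 at an unadjusted p under 0.05. The count was 1 without GFP T0901317 replicate 2 or LXRα vehicle replicate 1, 7 without GFP T0901317 replicate 1, 9 without GFP vehicle replicate 2 (3 higher, 6 lower), 16 without LXRα T0901317 replicate 2 and 43 without GFP vehicle replicate 1 (9 higher, 34 lower). The excess of rises over falls therefore turned round without either GFP vehicle array. Without the 3 T0901317 arrays of highest β-actin ratio it was 9. Each call below therefore depends on the arrays included and is given with its array values. On LXRα T0901317 replicate 1 alone, all 68 probe sets that rose lay above both LXRα vehicle arrays and all 22 that fell lay below both. That array is among those that chose them.

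**Figure D2:**
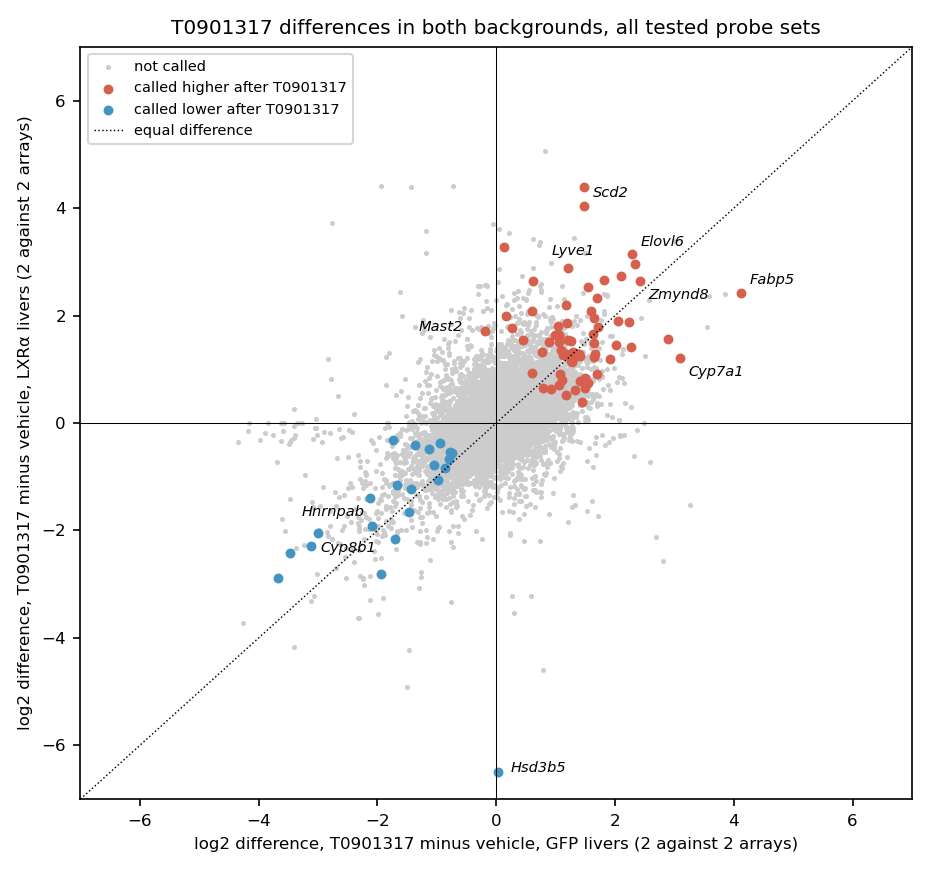
Log2 difference, T0901317 minus vehicle, of every tested probe set in GFP livers (horizontal axis) and in LXRα livers (vertical axis), each 2 arrays against 2; coloured points were called in the average over both. Of the 90 called points, 88 lie on the same side of 0 on both axes, and Hsd3b5 and Mast2 lie outside.

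Most LXR target genes were higher after T0901317 on average. Of 19 listed targets 17 were tested, 16 of them were higher on average and 14 had the same sign in both backgrounds. Of all 9359 tested genes, 4583 were higher on average (49.0%) and 6620 had the same sign in both backgrounds. These background counts apply to the later lists too. Cyp7a1 and Rnf145 passed the test; of all 9359 tested genes 40 rose (0.427%) and 7 fell (0.0748%). The list's median log2 difference was 0.68 (0.27 in GFP livers, 0.70 in LXRα livers), against -0.01 over all tested genes. Leaving out LXRα vehicle replicate 1 took the list's median to 1.03. An unadjusted p under 0.05 with a higher level was reached by 11 of the 17, against 13.5% of all tested genes. In LXRα T0901317 replicate 1 alone the list's median over LXRα vehicle was 0.75.

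Cyp7a1, the rate-limiting enzyme of the classic bile acid pathway, had intensities of 713 and 543 in GFP T0901317 and of 412 and 671 in LXRα T0901317 livers. Vehicle livers gave 77.8 and 68.2 with GFP and 219.6 and 232 with LXRα. All 4 T0901317 livers were above all 4 vehicle livers, and among vehicle livers the LXRα pair was above the GFP pair. Cyp7a1 rose 4.46-fold (2.16 log2 units, SE 0.21, limma adjusted p = 0.025). The difference was 3.09 in GFP and 1.22 in LXRα livers, and 0.87 for LXRα T0901317 replicate 1 alone. A dimmer probe set of the gene gave 1.06 with arrays that overlapped.

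Rnf145, a ubiquitin ligase of the endoplasmic reticulum and an LXR target in mouse liver, had 297 and 357 in GFP T0901317 and 482 and 386 in LXRα T0901317 livers. In vehicle livers it had 107 and 94.2 with GFP and 94.1 and 79.4 with LXRα. The lowest T0901317 liver was well above the highest vehicle liver. Rnf145 rose 4.02-fold (log2 difference 2.01, SE 0.17, limma adjusted p = 0.0206), by 1.69 in GFP livers, by 2.32 in LXRα livers and by 2.48 on LXRα T0901317 replicate 1 alone.

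Sterol exporters were higher in the average without passing the test. Abca1, which loads cholesterol onto apolipoprotein A-I, had 2047 and 1718 in GFP T0901317 and 1539 and 1861 in LXRα T0901317 livers, against 937 and 747 in GFP vehicle and 1040.4 and 752 in LXRα vehicle livers. The groups did not overlap, and the log2 difference was 1.05 (SE 0.19, limma adjusted p = 0.069), close in GFP (1.17) and LXRα livers (0.94). Abca1 also has 2 dimmer probe sets that gave -1.58 and -1.81 on average. On one of these LXRα T0901317 replicate 1 had 259 and replicate 2 had 6.3, against 127 to 194 on the 4 vehicle arrays. On the other the same arrays had 195 and 20.3, against 97.2 to 209. For both, the T0901317 array of lowest β-actin ratio was thus above or within the vehicle range and its partner far below. Abcg5 and Abcg8, the partners that form the exporter into bile, differed by 1.28 (SE 0.25, limma adjusted p = 0.0728) and 1.08 (SE 0.20, limma adjusted p = 0.069). In GFP livers alone they differed by 1.74 and 1.61, where vehicle levels were lower (448 and 484 for Abcg5) than in LXRα vehicle livers (790.3 and 1509). Abcg1, the exporter of macrophages and other cells, differed by 0.45.

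Srebf1, which encodes the transcription factor SREBP-1 that drives fatty acid synthesis, had 3061 and 4037 in GFP T0901317 and 2273 and 4592 in LXRα T0901317 livers. Vehicle livers had 1575 and 644 with GFP and 2157 and 1989 with LXRα. All T0901317 livers were above all vehicle livers, by a narrow margin for LXRα T0901317 replicate 1, whose difference alone was 0.13. The average difference of 1.22 (SE 0.35) did not pass (limma adjusted p = 0.128). Pltp, the phospholipid transfer protein, differed by 1.10 (0.23 in GFP and 1.97 in LXRα livers), and Lpl, lipoprotein lipase, by 1.20 (0.27 in GFP and 2.13 in LXRα livers), both without overlap. Mylip, the ligase that degrades the LDL receptor, differed by 0.68, Mlxipl, the carbohydrate response factor ChREBP, by 0.65, Smpdl3a by 0.47 and Lpcat3, a phospholipid acyltransferase, by 0.35. Apolipoprotein targets stayed near 0, with Apoc2 at 0.03, Apoc1 at 0.00 and Apoe at -0.23, the 1 target lower on average. None of these passed the test. Scd1, already among the brightest probe sets, had 18369 to 21232 in T0901317 livers and 13283 to 16941 in vehicle livers, a difference of 0.33. Its dimmer probe set gave -0.63.

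Fatty acid synthesis genes held 2 of the 3 largest called rises among genes taken by their brightest probe set. Of 24 tested genes of fatty acid and triglyceride synthesis, Scd2 and Elovl6 rose, none fell, and 19 were higher on average. Of all tested genes 0.427% rose, 0.0748% fell and 49.0% were higher on average. The list's median was 0.55 (0.42 in GFP, 0.64 in LXRα livers, 0.65 on LXRα T0901317 replicate 1 alone), and 0.33 without LXRα vehicle replicate 2. In 7 of the 24 all T0901317 arrays were above all vehicle arrays, against 8.83% of all tested genes.

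Elovl6, which elongates palmitate to stearate, had 1074 and 1766 in GFP T0901317 and 1440.4 and 1772 in LXRα T0901317 livers, against 371 and 213 in GFP vehicle and 289 and 113 in LXRα vehicle livers. No vehicle liver came near a T0901317 liver. It rose 6.58-fold (log2 difference 2.72, SE 0.36, limma adjusted p = 0.048), by 2.29 in GFP and 3.14 in LXRα livers. A separate probe set of Elovl6 also rose, by 2.65 (SE 0.27, limma adjusted p = 0.0318). On LXRα T0901317 replicate 1 alone the brighter probe set differed by 2.99.

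Scd2, a stearoyl-CoA desaturase isoform, had 514 and 456 in GFP T0901317 and 1495 and 607 in LXRα T0901317 livers. Vehicle livers had 212 and 141 with GFP and 95.1 and 35 with LXRα. The groups did not overlap, and the gap was wider among LXRα livers. Scd2 rose 6.8-fold (log2 difference 2.77, SE 0.41, limma adjusted p = 0.0491), by 1.48 in GFP and 4.05 in LXRα livers, with no call for the difference between the 2 (2.56, SE 0.82, limma adjusted p = 1).

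Acacb, the mitochondrial acetyl-CoA carboxylase, differed by 2.43 (SE 0.54, limma adjusted p = 0.085), Acss2, which makes acetyl-CoA from acetate, by 2.12 (SE 0.46, limma adjusted p = 0.0842), and Fasn, fatty acid synthase, by 1.67 (SE 0.40, limma adjusted p = 0.0965). For Fasn the intensities were 1945 and 3585 in GFP T0901317 and 2806 and 2892 in LXRα T0901317 livers, against 1643 and 659 in GFP vehicle and 1074 and 479.8 in LXRα vehicle livers. For all 3 genes the T0901317 arrays lay above the vehicle arrays without overlap, and none passed the test. Vehicle livers of one group differed by more than 2-fold in these genes: Acacb had 86.8 and 189 in GFP vehicle livers and 353 and 68.5 in LXRα vehicle livers.

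Fabp5, a cytosolic fatty acid binding protein, had the largest rise among the called probe sets. It had 1372 and 3692 in GFP T0901317 and 1619 and 3410.1 in LXRα T0901317 livers, against 92.5 and 181 in GFP vehicle and 402 and 476 in LXRα vehicle livers. The lowest T0901317 liver was above every vehicle liver, and LXRα vehicle livers were above GFP vehicle livers. Fabp5 rose 9.67-fold (log2 difference 3.27, SE 0.41, limma adjusted p = 0.048), by 4.12 in GFP and 2.43 in LXRα livers, and by 1.89 on LXRα T0901317 replicate 1 alone. Its other probe set gave 2.68 (limma adjusted p = 0.0668).

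**Figure D3:**
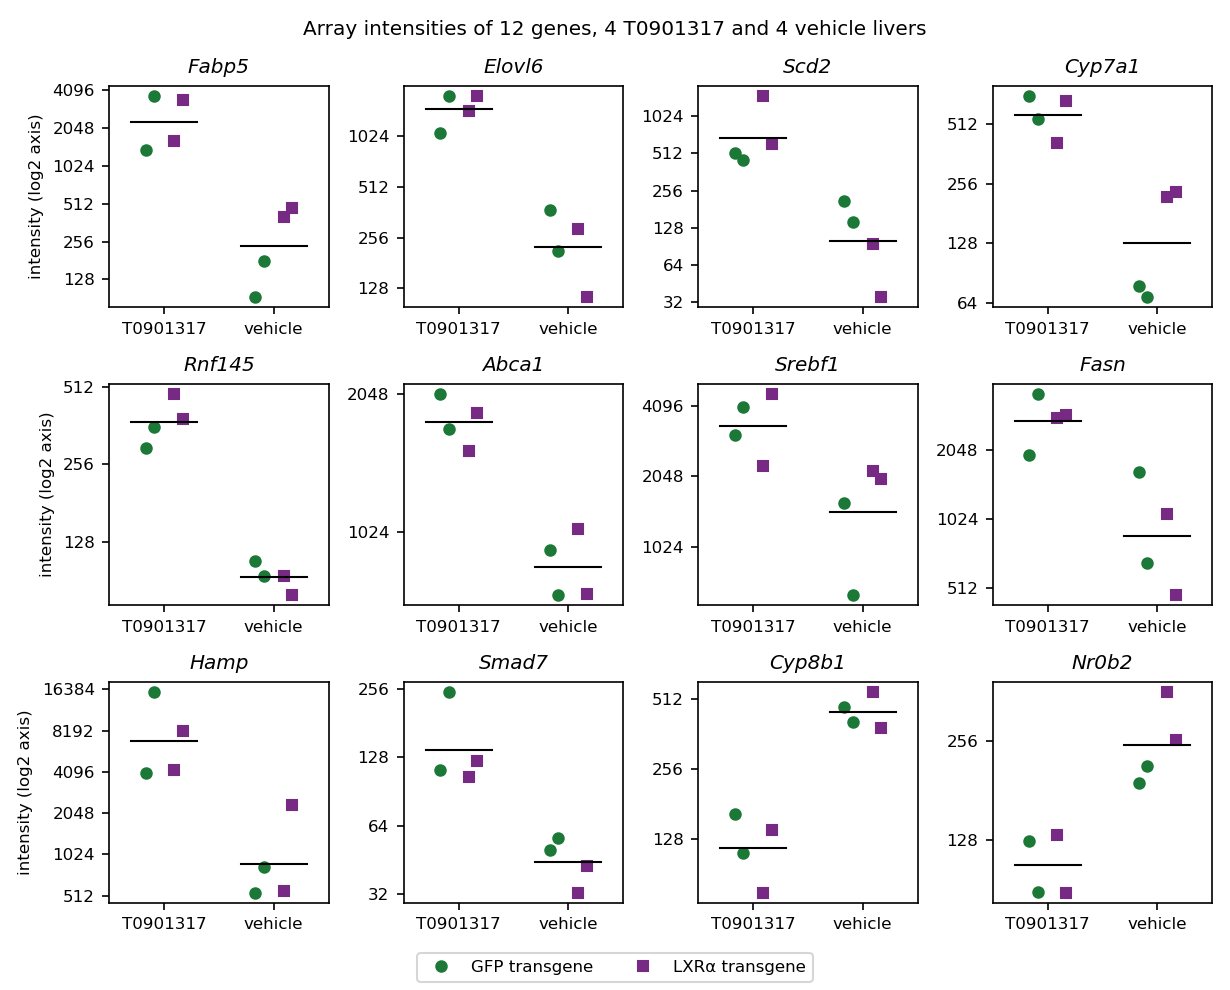
Intensity (log2 axis) of 12 genes on each array, T0901317 livers left and vehicle livers right in each panel; circles are GFP and squares LXRα livers, and the line is the mean of log2 values over 4 arrays. In each panel the 4 T0901317 arrays lie wholly above or wholly below the 4 vehicle arrays, and the Elovl6 arrays, for example, sit between 1074 and 1772 after T0901317 and between 113 and 371 after vehicle.

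Bile acid genes split. Of 22 tested genes of bile acid synthesis and transport, Cyp7a1 rose and Cyp8b1 fell, beside 0.427% and 0.0748% of all tested genes. On average 10 were higher and 12 lower, with a median of -0.13. Cyp8b1, the sterol 12α-hydroxylase that directs synthesis to cholic acid, had 164 and 111 in GFP T0901317 and 75.4 and 139.7 in LXRα T0901317 livers, against 472 and 406 in GFP vehicle and 551 and 385 in LXRα vehicle livers. Every T0901317 liver was below every vehicle liver. Cyp8b1 was 3.82-fold lower (log2 difference -1.93, SE 0.27, limma adjusted p = 0.048), with -1.70 in GFP livers, -2.17 in LXRα livers and -2.61 for LXRα T0901317 replicate 1 alone.

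Nr0b2, which encodes SHP, a repressor of Cyp7a1 and Cyp8b1, had 126 and 88.3 in GFP T0901317 and 133 and 88.1 in LXRα T0901317 livers. In vehicle livers it had 191 and 215 with GFP and 363 and 259 with LXRα. The groups did not overlap, and the difference of -1.22 (SE 0.22) did not pass (limma adjusted p = 0.069). Slco1b2, an uptake transporter for bile acids and other organic anions, stood at -1.08 (SE 0.16, limma adjusted p = 0.0502). Its 3 other probe sets gave -0.02 to -3.79. Abcc2, an exporter of the bile canaliculus, was at 0.90 (limma adjusted p = 0.0992).

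Other genes that rose in both backgrounds belonged to no single list. Zmynd8, a reader of acetylated histones, had the smallest adjusted p among named genes. Its intensities were 105 and 87.8 in GFP T0901317 and 84.5 and 61.9 in LXRα T0901317 livers, against 17.9 and 17.8 in GFP vehicle and 10.3 and 12.9 in LXRα vehicle livers. Each T0901317 liver was more than 3 times the highest vehicle liver. It rose 5.81-fold (log2 difference 2.54, SE 0.16, limma adjusted p = 0.014), by nearly the same in GFP (2.43) and LXRα livers (2.65).

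Mtdh, an RNA-binding membrane protein also called metadherin, had 715 and 761 in GFP T0901317 and 583 and 603 in LXRα T0901317 livers, against 180.3 and 183 in GFP vehicle and 228 and 205 in LXRα vehicle livers. It rose 3.34-fold (log2 difference 1.74, SE 0.14, limma adjusted p = 0.0206). The groups did not overlap. Of its 4 dimmer probe sets, 3 were higher, at 0.45 to 0.98, and 1 lower at -0.29. Aak1, a kinase of clathrin adaptors, rose by 2.23 (SE 0.21, limma adjusted p = 0.025), with 98.9 to 163 in T0901317 and 17.9 to 51.5 in vehicle livers, while a second probe set gave -0.31. Ablim1, an actin-binding LIM protein, rose by 1.84 (SE 0.19, limma adjusted p = 0.0325), with 66.3 to 99.9 against 15.3 to 31.5 in vehicle livers. Dmpk, the myotonic dystrophy kinase, rose by 1.69 (SE 0.24, limma adjusted p = 0.0489). Bcl2l11, which encodes the pro-apoptotic protein Bim, and Hdgf, a growth factor that binds chromatin, rose by 1.75 and 1.84 (limma adjusted p = 0.0491 for each). Other probe sets of these 2 genes gave -0.14 to 0.73 and -0.02 to 0.20.

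Among genes that fell, Hnrnpab, an RNA-binding protein of the nucleus, had 581 and 199.8 in GFP T0901317 and 499 and 570.0 in LXRα T0901317 livers, against 3304 and 2237 in GFP vehicle and 2389.8 and 2023 in LXRα vehicle livers. This probe set fell by 2.52 on the log2 scale (SE 0.35, limma adjusted p = 0.048), with no overlap. The 6 other probe sets of Hnrnpab gave -1.02 to 0.48 and none of them was called. Rbbp4, a histone chaperone, fell by 1.56 (SE 0.21, limma adjusted p = 0.048), while its other probe sets gave -2.06 and 0.62.

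Gjb1, the main gap junction protein of hepatocytes (connexin 32), had 423 to 559.6 in T0901317 livers and 903 to 1123 in vehicle livers. It was 2.04-fold lower (log2 difference -1.03, SE 0.15, limma adjusted p = 0.0491), by like amounts in GFP (-0.99) and LXRα livers (-1.06), and -0.98 on LXRα T0901317 replicate 1 alone. Its second probe set was at -2.56 (limma adjusted p = 0.0947). Mmab, an enzyme of cobalamin metabolism, and Mia2, of the secretory pathway, fell by 0.85 and 0.88 (limma adjusted p = 0.048 and 0.025), both at dim levels: Mia2 had 6.13 to 11.9 in T0901317 and 14.6 to 21.3 in vehicle livers, next to the floor of 7.50. Further genes were lower on all 4 T0901317 arrays than on any vehicle array, as 7.16% of all tested genes were, without passing. They include Uqcc1 at -0.98, Ugt3a2, a glycosyltransferase, at -0.81, Aox3, an aldehyde oxidase, at -1.32, Ggact at -1.42, Fancc at -0.87, Septin1 at -0.48 and Gh at -0.82 (limma adjusted p from 0.0622 to 0.069). A dimmer probe set of Gh, the growth hormone gene, did fall, by 0.91 (limma adjusted p = 0.048), with 12.2 to 17 in T0901317 and 20.6 to 36.1 in vehicle livers.

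**Figure D4:**
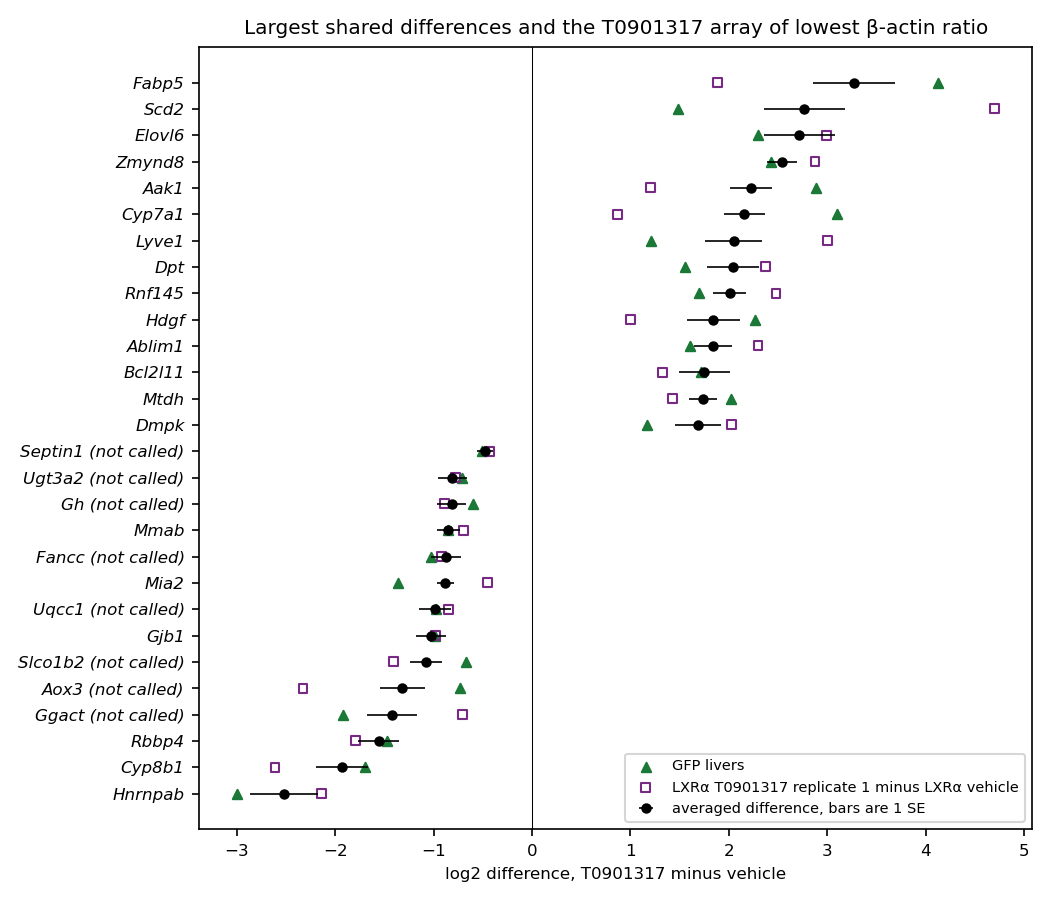
Log2 difference, T0901317 minus vehicle, of the 14 largest called rises, the 6 called falls and 8 lower genes that did not pass the test; circles are the average over both transgenes with bars of 1 SE, triangles are GFP livers, and open squares are LXRα T0901317 replicate 1, the T0901317 array of lowest β-actin ratio, minus the mean of both LXRα vehicle arrays. Squares run from 4.70 for Scd2 to -2.61 for Cyp8b1. Each lies on the same side of 0 as its circle, which the choice of genes fixed in advance. All T0901317 arrays of each gene shown lie above, or all lie below, every vehicle array.

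Genes of iron handling included large differences that did not pass. Hamp, which encodes hepcidin, the hormone that limits iron release into plasma, had 4039 and 15783 in GFP T0901317 and 4243 and 8164 in LXRα T0901317 livers. Vehicle livers had 536 and 822 with GFP and 553 and 2356 with LXRα. The groups did not overlap and the difference was 2.98 (SE 0.60, limma adjusted p = 0.0766), with Hamp2 at 3.19 (SE 0.57, limma adjusted p = 0.069). These neighbouring copies are alike in sequence, so their probe sets may share signal. Smad7, an inhibitor of the BMP signal that drives hepcidin, differed by 1.64 (SE 0.27, limma adjusted p = 0.0622), alike in GFP (1.66) and LXRα livers (1.61). Of 12 tested iron genes 10 were higher and none passed; the median was 0.31.

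Sterol synthesis genes were mildly higher, with 14 of 19 higher, none called and a median of 0.24. That median was 0.10 without GFP vehicle replicate 1 or GFP T0901317 replicate 2, 0.12 without LXRα vehicle replicate 2 or after quantile normalization, and 0.47 without GFP T0901317 replicate 1. Sqle, squalene epoxidase, was at 1.11 (limma adjusted p = 0.116), Idi1 at 1.06, Dhcr7 at 0.77 and Mvk at -0.50. In fatty acid oxidation, 11 of 24 were higher, none passed and the median was -0.04, while 4 members controlled by PPARα had larger differences. Cyp4a14 was at 2.95, Acot1 at 2.02, Ehhadh at 1.95 and Pdk4, a kinase that spares glucose, at 1.75. Their differences came mainly from LXRα livers: for Ehhadh 0.93 in GFP and 2.98 in LXRα livers, and for Cyp4a14 0.83 in GFP and 5.06 in LXRα livers, where LXRα vehicle arrays had 128 and 21.9.

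Glucose metabolism had 9 of 14 members lower, none called, with a median of -0.29 (-0.43 without GFP T0901317 replicate 1). Fbp1, of gluconeogenesis, was at -0.60 (limma adjusted p = 0.0888) and Khk, ketohexokinase, at -0.86 (limma adjusted p = 0.113), both without overlap. Clock genes had 11 of 13 higher and a median of 0.49, with Hlf at 1.57, Usp2 at 1.42 and Per2 at 1.01, none called. The median was 0.28 without GFP T0901317 replicate 1, 0.29 without GFP vehicle replicate 1, and 0.21 with 7 higher and 6 lower without the 3 T0901317 arrays of high β-actin ratio. The time of day of collection is not given in the labels. Among 22 chaperone and ER stress genes none passed and the median was -0.13. Sdf2l1 at -2.01 (limma adjusted p = 0.0999), Pdia3 at -1.62 (limma adjusted p = 0.129) and Pdia4 at -0.77 (limma adjusted p = 0.0947) were lower without overlap; on LXRα T0901317 replicate 1 alone the first 2 stood at -1.14 and -0.74.

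Receptor genes did not pass. Nr1h3, the mouse LXRα gene, was at -0.88 (SE 0.32, limma adjusted p = 0.179), with 62.6 to 163 in T0901317 and 128 to 218 in vehicle livers. Whether its probe set detects the human transgene is not known. Nr1i2, the pregnane X receptor, was at 0.13, and Nr1i3, the constitutive androstane receptor, at -0.92 (limma adjusted p = 0.105). Of 18 tested genes of xenobiotic metabolism, Nr1i3 itself among them, 13 were higher and none passed. Their median was 0.28, or 0.12 without GFP T0901317 replicate 1 or LXRα vehicle replicate 2.

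Markers of other liver cell types were also set beside the treatment. Lyve1, a hyaluronan receptor of sinusoidal endothelium, had 268 and 137 in GFP T0901317 and 338 and 290.3 in LXRα T0901317 livers, against 72.5 and 95 in GFP vehicle and 56.9 and 31.2 in LXRα vehicle livers. It rose 4.14-fold (log2 difference 2.05, SE 0.29, limma adjusted p = 0.0489), and its second probe set rose too (1.35, limma adjusted p = 0.0489). In whole liver, more cells of a type and more RNA per cell cannot be told apart. Of 15 endothelial markers 11 were higher, with a median of 0.26 (0.17 without GFP T0901317 replicate 1) and Lyve1 as the 1 called, and their summed intensity was 1757 to 1991 in T0901317 and 1110 to 1686 in vehicle livers. Dpt, dermatopontin, a matrix protein, rose by 2.04 (SE 0.26, limma adjusted p = 0.048), with 73.6 to 178 in T0901317 and 22.6 to 36 in vehicle livers.

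Stellate cell and matrix markers were higher in 17 of 18 cases, none called, with a median of 0.67 that came from LXRα livers (1.21) rather than GFP livers (0.09). It was 0.37 without GFP T0901317 replicate 1 and 0.41 without GFP vehicle replicate 2. Reln, made by stellate cells, was alike in both, at 1.16 and 1.15, and did not overlap (limma adjusted p = 0.076), whereas Col4a2 was at 0.47 in GFP and 1.88 in LXRα livers. The summed intensity of the list was 3899 and 5511 with GFP and T0901317, and 5533 and 5628 with LXRα and T0901317. In vehicle livers it was 3254 and 4997 with GFP and 1774 and 2127 with LXRα. Of 18 macrophage markers 14 were higher on average, none called, with a median of 0.33. By background the median was -0.12 in GFP and 0.96 in LXRα livers, and 7 of the 18 had the same sign in both. Their sums were 12606.5 to 21492 in T0901317 and 5225 to 19117 in vehicle livers, which overlapped. The macrophage median was 0.01, with 9 of 18 higher, without LXRα vehicle replicate 2, 0.14 without GFP T0901317 replicate 2, 0.20 without LXRα T0901317 replicate 1, 0.50 without GFP T0901317 replicate 1 and 0.68 without LXRα vehicle replicate 1. The 11 lymphocyte markers summed to 986 to 3914 in T0901317 and 396 to 801 in vehicle livers, without overlap and highest on LXRα T0901317 replicate 1. That sum was carried by few bright members, with Ighm, an immunoglobulin heavy chain, at 3332 of it on that array. Of the 11, 5 were higher and 6 lower, with a median of -0.07, and none lay wholly above; Cd4 stood at -0.39 and Cd3g at -0.19. The 5 erythroid markers summed to 227 to 369 in T0901317 and 362 to 478 in vehicle livers, which overlapped, as did the 6 cholangiocyte markers (280.5 to 497 in T0901317, 254 to 505 in vehicle livers) and the 5 neutrophil markers (86.3 to 512 in T0901317, 97.9 to 300.3 in vehicle livers). No tested marker was at the floor on all arrays, which the filter on dim probe sets fixed in advance. Markers under that filter, such as Krt19, Krt7 and Cd163, were not tested. The part of cell composition in the differences of other genes was not tested.

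In some lists, the macrophage markers above among them, the averaged median hid opposite medians in the 2 backgrounds. The glutathione, acute phase and interferon lists did so with no called member. The 20 glutathione and antioxidant genes had a median of 0.31, which stood for -0.64 in GFP and 1.16 in LXRα livers (1.44 on LXRα T0901317 replicate 1 alone). The 22 acute phase genes had 0.49 in GFP and -0.71 in LXRα livers (-0.85 on that array), with a median of -0.03 for the averaged differences, and the 20 interferon genes -0.54 in GFP and 0.27 in LXRα livers (0.69 on that array), with the same median of -0.03. The differences between backgrounds were not tested for lists.

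Other medians were 0.10 for 17 cell cycle genes and 15 ribosomal protein genes, 0.00 for 20 apolipoprotein and plasma lipid genes, -0.05 for 23 respiratory chain genes and -0.26 for 23 genes of the urea cycle and amino acid catabolism. Some of these also had opposite medians by background. Cell cycle genes had -0.19 in GFP and 0.36 in LXRα livers, ribosomal protein genes -0.08 and 0.32, and urea cycle genes 0.09 and -0.26. Hepatocyte markers had a median of -0.13, with Alb, albumin, at -0.20. Lymphocyte, cholangiocyte, neutrophil and erythroid markers had medians of -0.07, -0.14, -0.08 and -0.07. Leaving out single arrays took several of these across 0, such as ribosomal proteins (-0.09 without GFP vehicle replicate 1 and 0.27 without GFP vehicle replicate 2), and the urea cycle list to -0.07 without GFP T0901317 replicate 2. Within the cell cycle list Ccnd1, cyclin D1, was at 2.05 without overlap (SE 0.33, limma adjusted p = 0.0622; 0.74 in GFP and 3.36 in LXRα livers). The 17 sex-biased and growth hormone dependent genes had a median of -0.48, at 0.22 in GFP and -1.22 in LXRα livers, with Hsd3b5 as the 1 called; it was -0.28 without LXRα T0901317 replicate 1.

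**Figure D5:**
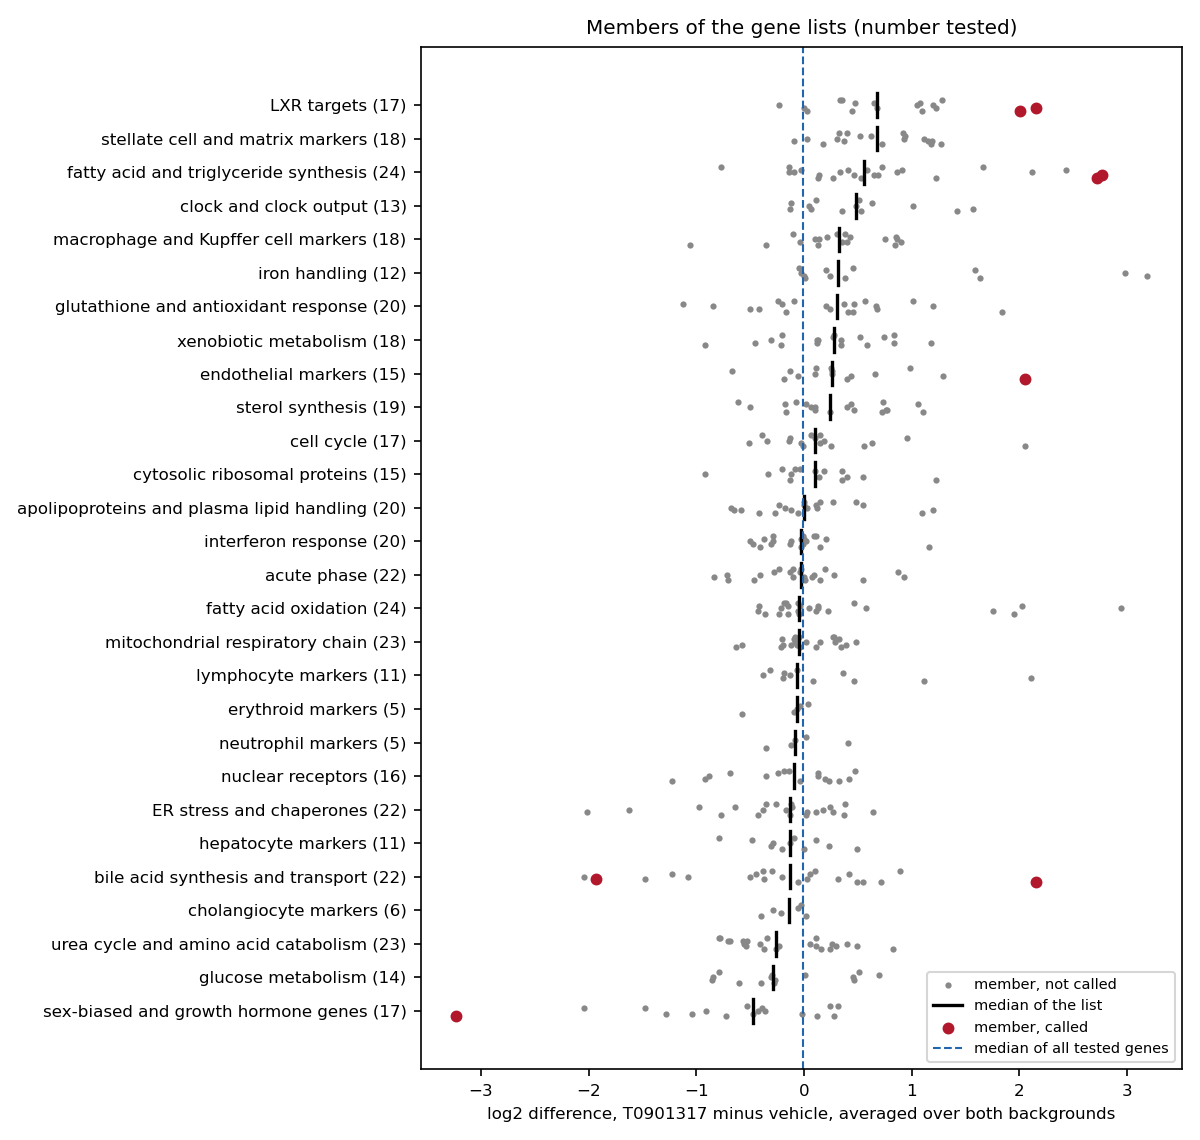
Log2 difference, T0901317 minus vehicle, averaged over both transgenes, of each tested member of the gene lists; bars are list medians, large points are called members and the dashed line is the median of all tested genes. The LXR target median is 0.68, that of fatty acid and triglyceride synthesis 0.55 and that of all genes -0.01.

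Differences that were not shared were tested as the interaction of T0901317 with transgene. It was called for 1 of 15838 probe sets (0.00631%), that of Hsd3b5, with 755 at an unadjusted p under 0.05. Hsd3b5, a steroid dehydrogenase of male mouse liver, had 8.4 and 6.59 in GFP T0901317 and 5.75 and 15 in LXRα T0901317 livers, against 8.1 and 6.82 in GFP vehicle and 846 and 1079 in LXRα vehicle livers. The LXRα vehicle livers alone were high, and the other 6 arrays lay around the floor. Since intensities under the floor of 7.50 were set to it, the difference in LXRα livers (-6.49) is a bound set by the floor, and that in GFP livers compares arrays at about the floor and cannot show a change. The averaged call (-3.23) and the interaction of -6.52 (SE 0.45, limma adjusted p = 0.0314) carry the same limit. Mast2, a kinase, was the other averaged call with opposite signs, at -0.19 in GFP and 1.71 in LXRα livers. Mast2 also had the next smallest interaction p among genes taken by their brightest probe set (1.90, SE 0.22, limma adjusted p = 0.311). After it came Ly6d, Sprr1a, Cyp2c70 and Slc22a7, with interactions of 5.84, 4.01, -2.25 and -5.38 (limma adjusted p from 0.45 to 0.755).

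Several probe sets of one gene often went different ways. Of the called genes, 63 had more than 1 tested probe set; in 28 all had the same sign and in 35 the signs were mixed, 55.6%, against 53.9% of all 3279 genes with several. Where each gene was fitted as the mean of its tested probe sets, 5 of 9359 genes were called, 3 higher and 2 lower. When the brightest probe set stood for each gene, 40 genes rose and 7 fell.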

How the data were processed

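Liver RNA of 8 mice was hybridised to Affymetrix arrays, 1 array per mouse per the labels. The deposited values are intensities, 1 per probe set and array, as the authors processed them; how they were summarised and scaled is not given in the sources used here. Precision is limited by the number of arrays, and p-values measure the spread between these samples only. Intensities under 7.50, the 20th percentile, were set to it and the log2 of the deposited intensities was taken. Of 22626 probe sets that are not controls, 15838 with a mean log2 above the 30th percentile were tested. Probe set symbols came from the platform annotation, updated through Entrez numbers in RefSeq: 20380 had 1 symbol, 691 several and 1555 none.

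The 4 group means were fitted with limma 3.58.1 in R 4.3.3 (eBayes with an intensity trend), averaging the T0901317 difference over both transgenes, with Benjamini-Hochberg adjustment over all tested probe sets. Each gene is given by 1 probe set, the brightest one tested that has no other symbol. Named are the 14 largest called rises, 14 falls, LXR targets and the most changed members of each list. Genes with the smallest interaction p are named too. The rises and falls were taken only from genes without overlap between T0901317 and vehicle arrays. Their sign also had to be the same in both backgrounds. A second probe set of Gh and the promoters shown were added after their values or letters had been seen. The scripts were tested on simulated data. The members and lists were chosen with earlier results of these data known. Alternatives were other normalizations, floors, filters, models, control ratios as covariates, a replicate block and leaving out arrays.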

Additional observations from a re-analysis of the deposited data

Results flagged for a closer look

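Groups of 4 arrays were screened, 102 in all. They covered the named rises and falls, the LXR targets and the 3′ to 5′ ratios of the control transcripts. Genes named for other reasons were not screened. In 4 of the 102 groups, all of named genes, an array's gap to its nearest neighbour exceeded Dixon's 95% limit as a share of the range. Chance gives about 1 in 20. For Dpt, LXRα vehicle replicate 1 had 22.6, against 33.8 to 36.0 on the other vehicle arrays. For Hnrnpab, GFP T0901317 replicate 2 had 199.8, against 499 to 581 on the other T0901317 arrays. For Aox3, LXRα T0901317 replicate 1 had 250.8, against 418 to 446 on the other T0901317 arrays. For Scd1, LXRα vehicle replicate 2 had 13283, against 16489 to 16941 on the other vehicle arrays.

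The T0901317 difference of Hsd3b5 was not the same in the 2 backgrounds by the test of the interaction, which was -6.52 on the log2 scale (SE 0.45, limma adjusted p = 0.0314). As 6 of its 8 arrays lay around the floor, that size is set by the floor.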

How the results depend on the processing

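The count of 90 probe sets called in the average became 738 at an adjusted p under 0.10, 32 after quantile normalization (22 higher, 10 lower, 28 shared with the 90), 111 with arrays centred on their medians (95 higher, 16 lower), 15 without the filter on dim probe sets (7 higher, 8 lower), 17 with the replicate number as a block (11 higher, 6 lower, 13 shared), 4 with a β-actin ratio covariate and 9 without the 3 T0901317 arrays of highest β-actin ratio. Leaving out single arrays gave 0 to 1506. In these, the lone array of a group is assumed to vary like the others. With covariates chosen after seeing the data it was 0 for the dap ratio (4076 at an unadjusted p under 0.05) and 4 for the thr ratio. The causes were not tested. Same-numbered arrays of different groups deviated with correlations of -0.138 to 0.247. The labels do not say what the numbers stand for, and these values cannot decide whether they pair the mice.

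The interaction count of 1 became 0 after quantile normalization, centring, the floor at the 5th percentile and the block (788, 761, 757 and 809 at an unadjusted p under 0.05), 8 without the filter, 2 without the trend or with the β-actin or thr ratio, and 0 to 24 when single arrays were left out. The LXR target median of 0.68 was 0.56 after quantile normalization, 0.76 with centring, 0.91 with the β-actin covariate, 0.75 without the 3 arrays and 0.57 to 1.03 without single arrays. Without single arrays the bile acid median ranged from -0.21 to -0.03, fatty acid oxidation from -0.14 to 0.15, ER stress from -0.22 to -0.03, glutathione from 0.04 to 0.51, acute phase from -0.24 to 0.08, interferon from -0.29 to 0.09 and urea cycle from -0.42 to -0.07.

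Of 129 genes followed, 117 kept their sign in all alternatives applied to single genes, including all 22 called. The dap and thr covariates were not among these. Other filters, the fit without the trend, the block and the additive model leave a tested gene's difference unchanged. Those alternatives could not reverse a sign. For the called genes other than Hsd3b5 and Mast2, leaving out arrays could not reverse the sign. They were chosen because their T0901317 arrays do not overlap their vehicle arrays. Without the 3 arrays Apoc1 was -0.088, Lrp1 -0.35, Prodh -0.29, Egfl7 0.057, Alb 0.020, Sprr1a 1.65 and Cyp2c70 -0.40. Apoc2 was -0.0080336 after quantile normalization and Apoc1 -0.0085 with the β-actin covariate. Without single arrays Apoc1 ranged from -0.027 to 0.030 and Apoc2 from -0.28 to 0.34. As the mean of probe sets, Abca1 was -0.78, Scd1 -0.15, Slc40a1 -0.19 and Mcm7 -0.056.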
